A study of Mus musculus with 12 samples.

Results

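The 6 genes described here, Slco2b1, Hpgd, Plxdc2, Prr5l, Ang and Rnase4, were chosen by the size of the fall of their counts in cultured mouse macrophages given RANKL. They are 6 of the 41388 genes listed in the count files, were matched to Ensembl gene identifiers by symbol, and all 6 had enough counts to be among the 13030 genes tested. The RANKL contrasts chose them, so their falls with RANKL are a description with no test, and only their genotype differences were tested. The genotype tests use the same libraries as the RANKL contrasts, so the choice of genes can bear on their values and p-values too. Ranked by the size of the fall among genes with at least 5 CPM in the higher group (CPM is read counts scaled to a common library size with TMM factors), they stood at 1 (Slco2b1), 3 (Hpgd), 6 (Ang), 8 (Plxdc2), 9 (Rnase4) and 18 (Prr5l) of 9933 genes in flox cells. In KO cells they stood at 1 (Slco2b1), 4 (Hpgd), 7 (Plxdc2), 10 (Prr5l), 14 (Rnase4) and 16 (Ang) of 9847 genes. Other genes lie between them in both orders, so they are a selection from the largest falls and not an unbroken top list.

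The cells came from the bone marrow of C57BL/6 mice of 2 genotypes, with 3 RNA-seq libraries in each of 4 groups. After 5 days of culture the cells were replated and held for 2 days with 2% M-CSF, the growth factor that keeps macrophages alive, with or without 50 ng/ml RANKL, the cytokine that turns them into osteoclasts. KO_OC cells were positive for LysM Cre, the label's KO genotype for Asxl2, and had M-CSF with RANKL. Cells of the flox_OC group carried floxed Asxl2 and had M-CSF with RANKL, those of KO_BMM were LysM Cre positive with M-CSF alone, and those of flox_BMM carried floxed Asxl2 with M-CSF alone. LysM Cre is driven by the lysozyme gene of myeloid cells, and no group had Cre with intact Asxl2. Whether separate mice gave the 3 libraries of a group is not in the labels, so each p-value reflects spread among libraries alone, which may be technical. Asxl2, which encodes a chromatin regulator, stood at 13.7 ± 1.24 CPM in KO_OC and 73.4 ± 2.27 CPM in flox_OC (SD, n = 3 each), and at 15.1 ± 0.265 CPM in KO_BMM and 93.1 ± 3.01 CPM in flox_BMM.

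RANKL binds its receptor on macrophage precursors and starts a programme in which osteoclast genes come on while many genes of the resting macrophage are turned down. The 6 genes encode proteins of different kinds. Slco2b1 is a membrane transporter of organic anions, Hpgd is the dehydrogenase that starts the breakdown of prostaglandins, Plxdc2 is a transmembrane protein with a plexin domain, and Prr5l is a partner of the kinase complex mTORC2. Ang (angiogenin) and Rnase4 are secreted ribonucleases of the RNase A family. Their genes lie side by side on mouse chromosome 14 and are transcribed from common promoters, each with its own coding exon.

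Promoter windows are shown for Ang and Rnase4, which moved together and share a start, and for Slco2b1, the gene with the largest fall. They are the start that RefSeq lists for both Ang and Rnase4, the start at 51096000 that RefSeq lists for Rnase4, and the most upstream start of Slco2b1. In GENCODE M21 the start at 51096000 belongs to an Ang transcript, and the nearest Rnase4 transcript starts at 51096359. The start of the first window is there that of an Rnase4 transcript, at 51091077, while the Ang transcript starts at 51091150, past the end of that window. Each window holds 250 bases before and 50 after an annotated start (RefSeq, GRCm38.p6), is written 5′ to 3′ on the gene's strand, and has matches to the searched motifs in capitals.
Ang and Rnase4, chr14:51090827-51091126, plus strand: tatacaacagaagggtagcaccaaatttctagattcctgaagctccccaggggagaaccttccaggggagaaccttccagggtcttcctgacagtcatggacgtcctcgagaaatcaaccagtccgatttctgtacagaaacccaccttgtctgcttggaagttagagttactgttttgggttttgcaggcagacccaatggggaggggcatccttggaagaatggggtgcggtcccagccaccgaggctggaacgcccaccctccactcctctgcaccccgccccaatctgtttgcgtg
Rnase4 in RefSeq and Ang in GENCODE M21, chr14:51095750-51096049, plus strand: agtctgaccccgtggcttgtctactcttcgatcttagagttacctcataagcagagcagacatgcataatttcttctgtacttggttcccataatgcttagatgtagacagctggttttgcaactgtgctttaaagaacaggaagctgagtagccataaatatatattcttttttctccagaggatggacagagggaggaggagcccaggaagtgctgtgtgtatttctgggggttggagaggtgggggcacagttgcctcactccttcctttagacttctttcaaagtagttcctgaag
Slco2b1, chr7:99711291-99711590, minus strand: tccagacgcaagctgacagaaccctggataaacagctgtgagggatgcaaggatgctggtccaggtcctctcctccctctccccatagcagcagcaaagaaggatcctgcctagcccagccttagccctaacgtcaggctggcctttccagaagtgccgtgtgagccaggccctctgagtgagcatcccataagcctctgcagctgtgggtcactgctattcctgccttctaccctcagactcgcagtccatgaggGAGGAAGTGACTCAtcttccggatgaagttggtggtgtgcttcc
The table held windows for 5 of the 6 genes, 9 distinct windows in all, and Plxdc2 had none. The motifs searched, on both strands, were GAGGAAGT (PU.1), TGANTCA (AP-1), TGCTGAC (MAF half-site), the interferon-stimulated response element (ISRE), CACGTG (E-box) and the core promoter box TATAAA. The Slco2b1 window held GAGGAAGT at position 7 and TGACTCA at position 14 counted from the start, and these overlap by the last T of GAGGAAGT. It was the 1 of the 9 windows with GAGGAAGT, which 3.2% of all 32817 distinct windows hold, and the 1 with TGANTCA, which 7.81% hold. The letters of TATAAA or its reverse complement stood in 2 windows, of Hpgd and Prr5l, against 13.6% of all windows. In Hpgd it was TATAAA at position 5, after the start, and in Prr5l the reverse complement TTTATA at position -246, so these are matches of letters alone. Neither window of Ang and Rnase4 held any of these letters, and none of the 9 held TGCTGAC (4.67% of all windows), the ISRE (3.43%) or CACGTG (7.15%).

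RANKL and genotype changed much of the transcriptome, which sets the scale for single genes. With edgeR's quasi-likelihood test and a Benjamini-Hochberg adjusted p under 0.05, 74.8% of tested genes were called in flox_OC against flox_BMM (37% higher, 37.8% lower) and 70.5% in KO_OC against KO_BMM (35.5% higher, 35% lower). By genotype, 41.3% of genes were called in OC (21.4% higher, 19.9% lower) and 39.9% in BMM (19.3% higher, 20.6% lower). The 3 and 3 libraries did not overlap for 75.2% of genes with RANKL in flox cells, 73.4% with RANKL in KO cells, 51.3% by genotype in OC and 46.6% by genotype in BMM. Scaling by library size alone in place of TMM moved the median of all genes by 0.165 in flox cells and 0.136 in KO cells in the RANKL comparisons (log2), and the share of called genes that were higher was 62.8% against 49.5% in flox cells, 63.5% against 50.4% in KO cells, and 59.9% against 48.3% for genotype in BMM. Libraries held 18489873 to 21667237 counts, and the floor of 3 counts set for a gene with a count of 0 equals 0.138 to 0.162 CPM. In bulk RNA, fewer cells of a kind and less RNA per cell cannot be told apart.

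**Figure D1:**
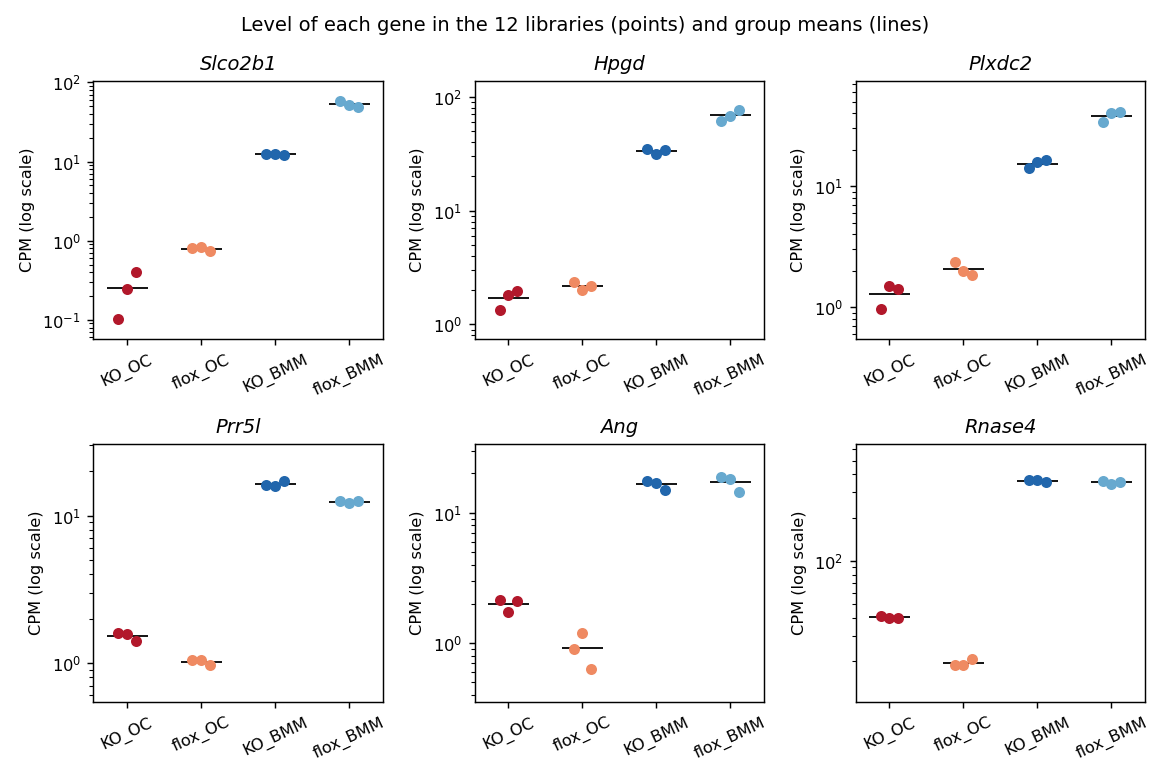
Level of each of the 6 genes in CPM (log axis) in every library (points) with the mean of the 3 libraries of a group (lines). For all 6 genes the 6 libraries with RANKL lie below the 6 with M-CSF alone, and Slco2b1 spans the widest range on the log axis, 0.102 to 57.7 CPM.

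Slco2b1, which encodes an organic anion transporting polypeptide (ENSMUSG00000030737, chromosome 7, 99657804 to 99711340, minus strand, GRCm38), was at 0.102, 0.247 and 0.401 CPM in KO_OC libraries and at 0.812, 0.839 and 0.731 CPM in flox_OC libraries. With M-CSF alone it stood at 12.3, 12.6 and 12.2 CPM in KO_BMM libraries and at 57.7, 52.2 and 48.6 CPM in flox_BMM libraries. The 4 groups did not overlap, with KO_OC lowest and flox_BMM highest. In flox cells, 1.5% of the level with M-CSF alone remained with RANKL, a fall of 66.5-fold (95% exact interval 50.3 to 89.8, counting error only, as for all such intervals here). In KO cells 2.03% remained, a fall of 49.2-fold (29.6 to 88.4) that rests on 15 counts over the 3 KO_OC libraries. By genotype, Slco2b1 was 4.27-fold lower in KO_BMM, a log2 fold change of -2.09 with SE 0.07 (edgeR adjusted p = 2.95e-30). It was also lower in KO_OC, by a log2 fold change of -1.64 with SE 0.40 (edgeR adjusted p = 0.000787), on 15 counts in KO_OC and 50 in flox_OC. An antisense gene, Gm15635, covers 7.45% of the exonic bases of Slco2b1, had at most 9 counts in any library, and without strand its reads cannot be told from those of Slco2b1.

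Hpgd, the enzyme that oxidises prostaglandin E2 to a form that its receptors no longer read (ENSMUSG00000031613, chromosome 8, 56294552 to 56321046, plus strand), stood at 1.33, 1.83 and 1.96 CPM in KO_OC and 2.35, 2.02 and 2.19 CPM in flox_OC. It stood at 34.8, 31.5 and 34.0 CPM in KO_BMM and 61.6, 67.2 and 76.2 CPM in flox_BMM. All RANKL libraries lay more than an order of magnitude below the M-CSF libraries of their genotype. RANKL left 3.21% of the level in flox cells (31.2-fold lower, 26.3 to 37.2) and 5.12% in KO cells (19.5-fold lower, 16.0 to 24.1). By genotype, Hpgd was 2.05-fold lower in KO_BMM, a log2 fold change of -1.03 with SE 0.06 (edgeR adjusted p = 1.94e-15). Every KO_OC library was lower than every flox_OC library, but the log2 fold change of -0.36 (SE 0.23) did not pass (edgeR adjusted p = 0.219).

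Plxdc2, a transmembrane protein related to Plxdc1 and described as a receptor for pigment epithelium-derived factor (ENSMUSG00000026748, chromosome 2, 16356304 to 16755839, plus strand), was at 0.973, 1.48 and 1.4 CPM in KO_OC and 2.35, 1.98 and 1.85 CPM in flox_OC. With M-CSF alone it was at 14, 15.8 and 16.3 CPM in KO_BMM and 33.6, 40.3 and 41.1 CPM in flox_BMM. The order of the groups was that of Slco2b1, again with no overlap between any of the 4. With RANKL, 5.38% of the level remained in flox cells (18.6-fold lower, 15.6 to 22.4) and 8.38% in KO cells (11.9-fold lower, 9.45 to 15.3). By genotype, Plxdc2 was 2.49-fold lower in KO_BMM, a log2 fold change of -1.32 with SE 0.07 (edgeR adjusted p = 2.44e-19). It was lower in KO_OC as well, by a log2 fold change of -0.68 with SE 0.23 (edgeR adjusted p = 0.0151). That call rests on single libraries: without flox_OC library 1 the change was -0.57 (edgeR adjusted p = 0.0901) and without KO_OC library 1 it was -0.51 (edgeR adjusted p = 0.103), in a range of adjusted p from 0.00429 to 0.103 over 18 alternatives.

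Prr5l, which binds mTORC2 and also the RNA decay protein tristetraprolin (ENSMUSG00000032841, chromosome 2, 101714285 to 101883027, minus strand), stood at 1.59, 1.58 and 1.4 CPM in KO_OC and 1.04, 1.04 and 0.974 CPM in flox_OC. In M-CSF alone it stood at 16.2, 15.8 and 17.1 CPM in KO_BMM and 12.5, 12.2 and 12.6 CPM in flox_BMM. Unlike the 3 genes above, its KO libraries lay above its flox libraries in both culture conditions. RANKL left 8.19% of the level in flox cells (12.2-fold lower, 9.44 to 16.0) and 9.30% in KO cells (10.8-fold lower, 8.67 to 13.5). By genotype, Prr5l was higher in KO_BMM, by a log2 fold change of 0.40 with SE 0.07 (edgeR adjusted p = 1.27e-05). In KO_OC it was higher by 0.58 with SE 0.22 (edgeR adjusted p = 0.032), a call lost in 7 of 18 alternatives with adjusted p of 0.0313 to 0.0829 over all of them. It was lost without flox_OC library 1, 2 or 3, without KO_OC library 1 or 2, with no filter on low counts and with DESeq2. Prr5l shares 1.57% of its exonic bases with the antisense gene Gm13905, which had no counts in any library.

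Ang and Rnase4 needed a check of the annotation before their counts could be read. In the annotation used for counting, Ang (ENSMUSG00000072115, chromosome 14, 51091077 to 51102007, plus strand) and Rnase4 (ENSMUSG00000021876, chromosome 14, 51091077 to 51106151, plus strand) shared 2 upstream exons, at 51091077 to 51091253 (177 bases) and 51096000 to 51096473 (474 bases). These 651 bases were 51.1% of the exonic bases of Ang and 32.6% of those of Rnase4. Each gene had 1 exon of its own, of 622 bases at 51101386 to 51102007 in Ang and of 1345 bases at 51104807 to 51106151 in Rnase4. In the GENCODE M21 transcripts, every one of the 4 transcripts of the pair had 2 exons, and its whole coding sequence lay in the last, which is not shared. The counting command named no option to count a read for more than 1 gene, and by default featureCounts leaves out a read that overlaps exons of both. The counts of each gene therefore stand for its own last exon, and reads within the shared exons are in neither.

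**Figure D2:**
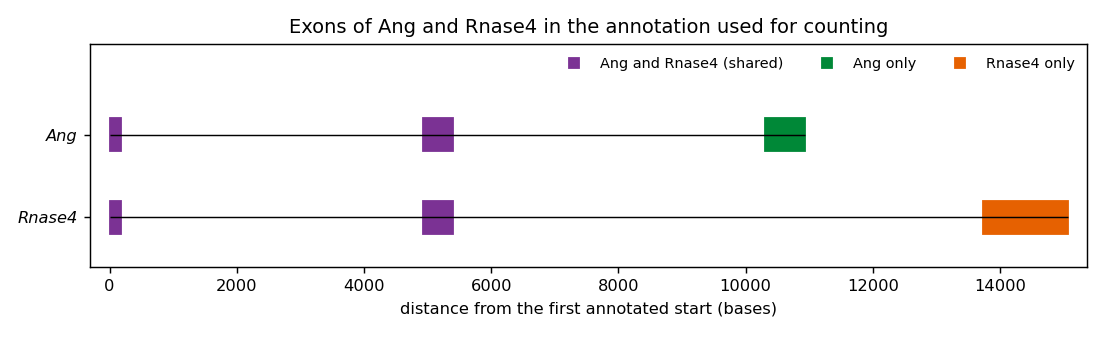
Exons of Ang and Rnase4 (boxes) by distance in bases from their first annotated start. The 2 upstream exons are shared by both genes, and the last exon of each, 622 bases in Ang and 1345 bases in Rnase4, belongs to that gene alone.

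Ang, a ribonuclease that cleaves transfer RNA and promotes vessel growth, stood at 2.15, 1.73 and 2.11 CPM in KO_OC and at 0.902, 1.19 and 0.633 CPM in flox_OC. With M-CSF alone it stood at 17.5, 16.9 and 15.0 CPM in KO_BMM and at 18.8, 18.2 and 14.5 CPM in flox_BMM. The BMM groups overlapped, while the KO_OC libraries all lay above the flox_OC libraries. RANKL left 5.27% of the level in flox cells (19-fold lower, 14.5 to 25.2) and 12.1% in KO cells (8.25-fold lower, 6.81 to 10.1). By genotype, Ang was 2.20-fold higher in KO_OC (1.59 to 3.08), with a log2 fold change of 1.13 (SE 0.25, edgeR adjusted p = 0.000243). In BMM its change was -0.06 (SE 0.08, edgeR adjusted p = 0.592).

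Rnase4, a secreted ribonuclease with a preference for uridine, was the most abundant of the 6. It stood at 41.3, 39.9 and 40.3 CPM in KO_OC and 18.7, 18.7 and 20.9 CPM in flox_OC. In M-CSF alone it stood at 364, 364 and 354 CPM in KO_BMM and 363, 342 and 355 CPM in flox_BMM. As with Ang, the BMM groups overlapped and the KO_OC libraries lay above the flox_OC libraries. With RANKL, 5.50% of the level remained in flox cells (18.2-fold lower, 17.2 to 19.3) and 11.2% in KO cells (8.91-fold lower, 8.54 to 9.29). By genotype, Rnase4 was 2.09-fold higher in KO_OC, a log2 fold change of 1.06 with SE 0.05 (edgeR adjusted p = 1.02e-22), and its change in KO_BMM was 0.03 with SE 0.03 (edgeR adjusted p = 0.444).

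The ratio of Rnase4 to Ang counts describes how closely the pair moved. Both genes were chosen for large falls with RANKL, so a like fall in both is in part set by that choice. It was 20.3 in KO_OC (95% exact interval 16.9 to 24.6), 21.4 in flox_OC (16.4 to 28.5), 21.9 in KO_BMM (20.6 to 23.4) and 20.5 in flox_BMM (19.2 to 22), from counts summed over the 3 libraries of a group. The intervals of all 4 groups overlapped, while the level of each gene was at least 8.25 times lower with RANKL. Single libraries ranged from 15.8 to 33.1, both in flox_OC, where Ang had 13 to 24 counts a library. In flox_BMM, library 2 had a ratio of 18.8 (16.9 to 21) and library 3 one of 24.5 (21.7 to 27.9). These intervals do not overlap, so spread between libraries can exceed counting error, which is all that the group intervals cover. Per base of own exon the ratio was 9.39 in KO_OC, 9.91 in flox_OC, 10.1 in KO_BMM and 9.50 in flox_BMM.

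**Figure D3:**
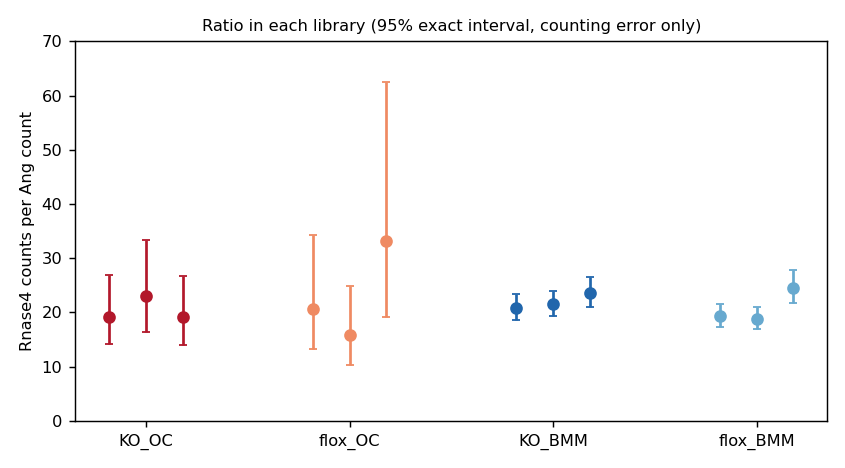
Rnase4 counts per Ang count in each library (points) with 95% exact intervals of counting error, by group. The ratio lies between 15.8 and 33.1 in all 12 libraries, and the interval is widest in flox_OC, where Ang has the fewest counts.

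Levels of different genes were compared per kb of exon not shared with another gene. In flox_BMM, Rnase4 led with 263 ± 7.96 CPM per kb, followed by Hpgd (39.7 ± 4.30), Ang (27.6 ± 3.78), Slco2b1 (10.2 ± 0.887), Plxdc2 (5.51 ± 0.592) and Prr5l (2.54 ± 0.038) in CPM per kb (SD, n = 3). In KO_OC the order on the same scale was Rnase4 (30.1 ± 0.558), Ang (3.21 ± 0.371), Hpgd (0.993 ± 0.192), Prr5l (0.312 ± 0.0214), Plxdc2 (0.185 ± 0.0396) and Slco2b1 (0.0482 ± 0.0288). Slco2b1, above Plxdc2 and Prr5l in flox_BMM, thus stood below both in KO_OC.

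By genotype the 6 genes fell into different patterns. In BMM, 3 of the 6 were lower in KO cells (Slco2b1, Hpgd, Plxdc2), 1 was higher (Prr5l) and 2 did not pass (Ang, Rnase4), beside 39.9% of all tested genes called. In OC, 3 were higher in KO cells (Prr5l, Ang, Rnase4), 2 were lower (Slco2b1, Plxdc2) and 1 did not pass (Hpgd), beside 41.3% of all tested genes called. Without flox_OC library 1 or KO_OC library 1, 2 of the 6 were higher and 1 was lower, and without flox_OC library 2 or 3 or KO_OC library 2, 2 were higher and 2 lower. The difference of the RANKL effects, KO minus flox, was 0.46 (SE 0.48) for Slco2b1, 0.68 (SE 0.24) for Hpgd, 0.64 (SE 0.25) for Plxdc2, 0.18 (SE 0.23) for Prr5l, 1.20 (SE 0.26) for Ang and 1.03 (SE 0.06) for Rnase4 on the log2 scale. All 6 values are positive, a smaller fall in KO cells, but those of Slco2b1 and Prr5l lie within 1 SE of 0. For Slco2b1, Hpgd and Plxdc2 the smaller fall goes with a lower level in KO_BMM, since their KO_OC libraries all lay below flox_OC. That of Slco2b1 was -0.04 without KO_OC library 3. No test of this difference is given, because it is made of the contrasts that chose the genes. That choice can also bear on the sign, and the share of positive values over all genes is not given here. The RANKL comparisons of KO and flox cells share no library.

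**Figure D4:**
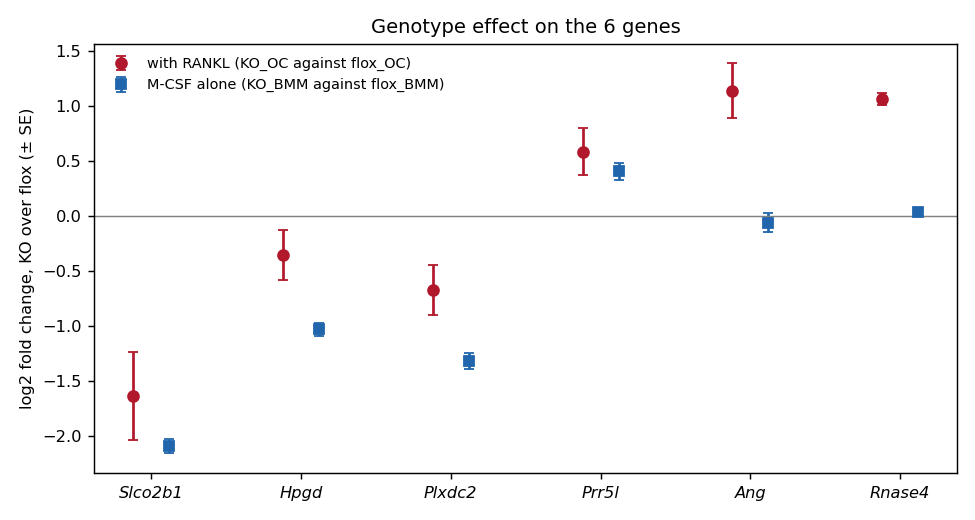
Genotype effect on each of the 6 genes as log2 fold change of KO over flox with its standard error, with RANKL (circles) and with M-CSF alone (squares). Slco2b1, Hpgd and Plxdc2 lie below 0 in both, Prr5l lies above 0 in both, and Ang and Rnase4 lie near 0 with M-CSF alone and above 1 with RANKL.

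Some genes listed as markers of other cell types moved with genotype as well. Of the stromal and osteoblast markers, 9 of 9 tested were lower in KO_BMM and 9 of 9 in KO_OC, and the summed level of the list was 52.4 to 62.4 CPM in KO_OC, 173 to 175 CPM in flox_OC, 64.7 to 73.3 CPM in KO_BMM and 204 to 223 CPM in flox_BMM. Bglap, the osteocalcin gene of osteoblasts, was at 0 in all 12 libraries. The summed megakaryocyte markers stood at 15.2 to 16.2 CPM in KO_OC, 134 to 140.5 CPM in flox_OC, 48.0 to 52.1 CPM in KO_BMM and 343 to 408 CPM in flox_BMM. That sum was almost all Pf4, which averaged 15.5 CPM in KO_OC, 137 CPM in flox_OC, 49.9 CPM in KO_BMM and 373 CPM in flox_BMM, while Itga2b, Gp1bb and Gp9 averaged at most 0.268 CPM in any group. Neutrophil markers summed to 10.1 to 11.8 CPM in KO_OC, 33.9 to 35.8 CPM in flox_OC, 25.6 to 28.2 CPM in KO_BMM and 78.0 to 82.2 CPM in flox_BMM, with the defining gene Ly6g at 0 throughout. Most of that sum was Mmp8, with 7.45 CPM in KO_OC, 28.4 CPM in flox_OC, 22.5 CPM in KO_BMM and 72.9 CPM in flox_BMM, and Elane, Mpo and Camp averaged at most 0.237 CPM in any group. These sums ran in the same direction as Slco2b1, Hpgd and Plxdc2 by genotype and opposite to Prr5l, and their part in the results was not tested.
Endothelial markers summed to 13.6 to 15.1 CPM in KO_OC, 24 to 24.7 CPM in flox_OC, 24.1 to 26.1 CPM in KO_BMM and 35.1 to 39.8 CPM in flox_BMM. Kdr gave most of it, with 12.4 CPM in KO_OC, 22.7 CPM in flox_OC, 20.2 CPM in KO_BMM and 33.9 CPM in flox_BMM, and the other tested member, Cdh5, did not pass by genotype, with 1.88 CPM in KO_OC, 1.55 CPM in flox_OC, 4.33 CPM in KO_BMM and 3.91 CPM in flox_BMM. B cell markers summed to 7.67 to 7.77 CPM in KO_OC, 11.2 to 12.7 CPM in flox_OC, 16.8 to 18.5 CPM in KO_BMM and 25.7 to 27.6 CPM in flox_BMM, nearly all of it Ighm. T and NK cell markers summed to at most 4.89 CPM in any library, nearly all of it Cd4, with Nkg7 at 0.

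The macrophage and osteoclast labels were set against their markers, and the osteoclast label was borne out in part. All 18 macrophage markers were lower in flox_OC than in flox_BMM and 17 of 18 in KO_OC than in KO_BMM, with a median log2 fold change of -1.50 and -1.03, against -0.0036 and 0.0017 over all tested genes. The summed macrophage markers were 19804 to 20019 CPM in KO_OC, 18525 to 18975 CPM in flox_OC, 37076 to 37975 CPM in KO_BMM and 42291 to 43608 CPM in flox_BMM. Most of that sum was Lyz2, with 11666 CPM in KO_OC, 10623 CPM in flox_OC, 19553 CPM in KO_BMM and 21792 CPM in flox_BMM. Lyz2 is the lysozyme gene that drives LysM Cre, and the part of the Cre allele in its level was not tested. Of the osteoclast markers, 10 of 12 rose in flox cells and 9 of 12 in KO cells, and the summed level was 917 to 941 CPM in KO_OC, 1326 to 1349 CPM in flox_OC, 707 to 722 CPM in KO_BMM and 777 to 819.7 CPM in flox_BMM. Acp5 averaged 132 CPM in flox_OC and 28.9 CPM in flox_BMM, and Mmp9 35.6 CPM in flox_OC and 2.06 CPM in flox_BMM. The other 2 of the 12 fell in flox cells. Tnfrsf11a and Clcn7, large parts of the sum, moved little, with 294 and 233 CPM in flox_OC and 271 and 209 CPM in flox_BMM. Calcr, the calcitonin receptor gene of mature osteoclasts, averaged 0.0165 CPM in flox_OC and 0 in KO_OC. Macrophage marker RNA thus remained in all RANKL libraries. Among these markers, Cd163, a haemoglobin scavenger receptor, was at 1.11 ± 0.0995 CPM in flox_OC and 29.4 ± 2.66 CPM in flox_BMM (log2 fold change -4.72, edgeR adjusted p = 1.68e-36). Genotype moved both lists as well. Of the 18 macrophage markers, 3 were higher and 15 lower in KO_BMM, and 9 were higher and 4 lower in KO_OC. For the 12 osteoclast markers, 4 were higher and 5 lower in KO_BMM, and 1 was higher and 9 lower in KO_OC.

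Other genes of prostaglandin handling moved with RANKL in both directions. Of 17 tested members, 5 were higher and 10 lower in flox_OC than in flox_BMM (median log2 fold change -0.33). In KO_OC against KO_BMM, 6 were higher and 10 lower (median -0.21). Over all tested genes, 37% were higher and 37.8% lower with RANKL in flox cells, and 35.5% and 35% in KO cells. By genotype, 21.4% were higher and 19.9% lower in OC, and 19.3% and 20.6% in BMM. These shares are the scale for every list count given here, and no list was tested against them. Hpgds, which makes prostaglandin D2, averaged 56.0 ± 2.26 CPM in flox_OC and 271 ± 15.7 CPM in flox_BMM (log2 fold change -2.27, edgeR adjusted p = 2.69e-42). Tbxas1, the thromboxane synthase gene, fell to 51.4 ± 3.15 CPM in flox_OC, against 171 ± 3.45 CPM in flox_BMM. The prostaglandin E2 receptor gene Ptger2 fell to 2.88 ± 0.391 CPM in flox_OC, against 17.5 ± 0.794 CPM in flox_BMM. The prostaglandin E synthase gene Ptges moved the other way, with 8.31 ± 0.186 CPM in flox_OC and 2.15 ± 0.224 CPM in flox_BMM (log2 fold change 1.95, edgeR adjusted p = 8.38e-18). By genotype, 4 of 17 were higher and 6 lower in KO_OC (median -0.08), and 0 were higher and 8 lower in KO_BMM (median -0.15). The cyclooxygenase gene Ptgs1 averaged 3.02 ± 0.0531 CPM in KO_OC and 8.09 ± 0.474 CPM in flox_OC, and 5.22 ± 0.689 CPM in KO_BMM and 22.2 ± 1.66 CPM in flox_BMM (log2 fold change -2.08, edgeR adjusted p = 9.58e-25).

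Among transporters of organic anions, drugs and related molecules, 5 of 12 tested were higher and 6 lower in flox_OC than in flox_BMM, and 4 were higher and 5 lower in KO_OC than in KO_BMM. Slco4a1, of the same family as Slco2b1, rose to 107 ± 3.26 CPM in flox_OC, against 4.99 ± 0.809 CPM in flox_BMM (log2 fold change 4.42, edgeR adjusted p = 2.58e-45). The lysosomal transporter gene Slc46a3 fell to 4.30 ± 0.330 CPM in flox_OC, against 59.0 ± 6.22 CPM in flox_BMM (log2 fold change -3.78, edgeR adjusted p = 3.79e-32), and the export pump gene Abcc3 fell to 88.1 ± 1.39 CPM in flox_OC, against 386 ± 24.5 CPM in flox_BMM. By genotype, 4 of 12 were higher and 3 lower in KO_OC, and 2 were higher and 5 lower in KO_BMM. The count of 2 was 1 without flox_BMM library 2 or 3 or KO_BMM library 1 or 3.

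Only 6 of the 20 other ribonuclease genes, ribonuclease inhibitor and angiogenin receptor genes in the files had enough counts to be tested. Of these, 1 was higher and 5 lower with RANKL in flox cells, and 1 higher and 5 lower in KO cells. Rnase6, another member of the RNase A family, fell to 2.01 ± 0.253 CPM in flox_OC, against 7.54 ± 0.480 CPM in flox_BMM (log2 fold change -1.90, edgeR adjusted p = 9.77e-17). Plxnb2, described as a receptor for angiogenin, averaged 1028 ± 6.83 CPM in flox_OC and 1348 ± 43.3 CPM in flox_BMM (log2 fold change -0.39, edgeR adjusted p = 1.08e-17). Rnh1, the ribonuclease inhibitor gene, averaged 472 ± 8.76 CPM in KO_BMM and 435 ± 23.6 CPM in flox_BMM (log2 fold change 0.12, edgeR adjusted p = 0.00103). By genotype, 4 of the 6 were higher in KO_OC and 2 in KO_BMM, and 0 were lower in either.

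Of 16 tested genes of the mTORC2 complex, its assembly and its targets, 5 rose and 4 fell with RANKL in flox cells (median log2 fold change 0.06). The other 7 did not pass, while 74.8% of all tested genes were called in that comparison. Telo2, which helps to assemble the complex, averaged 41.1 ± 2.55 CPM in flox_OC and 22.5 ± 1.47 CPM in flox_BMM (log2 fold change 0.87, edgeR adjusted p = 6.29e-19). The kinase gene Sgk1 averaged 59.9 ± 0.483 CPM in flox_OC and 107 ± 5.39 CPM in flox_BMM (log2 fold change -0.84, edgeR adjusted p = 1.57e-24). With library size alone 11 of the 16 were higher in flox_OC. In KO cells 5 rose and 4 fell, and 9 were higher with library size alone. Zfp36, the tristetraprolin gene, averaged 59.7 ± 0.774 CPM in KO_OC and 77.0 ± 2.34 CPM in flox_OC, and 80.2 ± 3.33 CPM in KO_BMM and 109 ± 2.17 CPM in flox_BMM, opposite in direction to Prr5l by genotype. By genotype 3 of 16 were higher and 4 lower in KO_OC, and 2 were higher and 4 lower in KO_BMM (4 higher with library size alone, and 1 without flox_BMM library 2 or KO_BMM library 1). Of the 5 genes listed as relatives, ligand or partners of Plxdc2, Plxdc1 averaged 27.5 ± 0.953 CPM in flox_OC and 103 ± 7.83 CPM in flox_BMM (log2 fold change -1.90, edgeR adjusted p = 1.23e-35). On that list 2 rose and 1 fell with RANKL in flox cells (1 and 2 without flox_BMM library 1), 2 rose and 3 fell in KO cells, 1 was higher and 2 lower in KO_OC by genotype, and 1 was higher and 3 lower in KO_BMM.

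Transcription factors of tissue macrophages were set beside the 6 genes. With RANKL 6 of 15 were higher and 9 lower in flox cells (median log2 fold change -0.59), and 5 were higher and 8 lower in KO cells (median -0.37). Maf averaged 53.7 ± 1.11 CPM in flox_OC and 805 ± 22.4 CPM in flox_BMM (log2 fold change -3.91, edgeR adjusted p = 1.18e-54), and Irf8 31.1 ± 0.650 CPM in flox_OC and 199 ± 2.15 CPM in flox_BMM. By genotype, 5 of 15 were higher and 6 lower in KO_OC, and 2 were higher and 11 lower in KO_BMM. Without KO_BMM library 1 the count of 2 was 0, and without KO_BMM library 3 it was 1. Maf was higher in KO_OC, with 118 ± 3.32 CPM in KO_OC and 53.7 ± 1.11 CPM in flox_OC (log2 fold change 1.13, edgeR adjusted p = 8.05e-30). Prdm1, which encodes the repressor Blimp1, was lower, with 7.58 ± 0.945 CPM in KO_OC and 39.3 ± 2.46 CPM in flox_OC (log2 fold change -2.37, edgeR adjusted p = 1.11e-29), and 6.39 ± 0.871 CPM in KO_BMM and 16.1 ± 0.732 CPM in flox_BMM (log2 fold change -1.33, edgeR adjusted p = 2.01e-16).

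Genes with the most similar course over the 4 groups were found by the root mean square distance between centred group means of log2 CPM (prior count 1), over 4 groups and 12 libraries, so that a small distance means a like shape and size of change. Such likeness is a description, since all genes share the libraries. Ang and Rnase4 were each other's nearest gene (distance 0.0486), followed for Ang by Maf (0.123) and Rnf150 (0.154), and for Rnase4 by Rnf150 (0.139) and Maf (0.147). Plxdc2 was nearest to Fcrls (0.0441), an Fc receptor-like gene, then Tpbgl (0.0967) and P2ry13 (0.337). Fcrls averaged 5.60 CPM in KO_OC, 9.47 CPM in flox_OC, 66.5 CPM in KO_BMM and 176 CPM in flox_BMM. Hpgd was nearest to Gpr34 (0.215), P2ry13 (0.25) and Cd163 (0.305). Slco2b1 had no near match, with Gpr34 at 0.666, Hpgd at 0.812 and Fcrls at 1.00. Gpr34 averaged 0.219 CPM in KO_OC and 0.299 CPM in flox_OC, close to the floor, so its distances to Hpgd and Slco2b1 rest on few counts and on the prior count. Prr5l was nearest to the iron exporter gene Slc40a1 (0.0824), Rnf150 (0.134) and Gas6 (0.153), the ligand of the receptor Mertk. Gas6 averaged 113 CPM in KO_OC, 60.6 CPM in flox_OC, 898 CPM in KO_BMM and 795 CPM in flox_BMM.

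**Figure D5:**
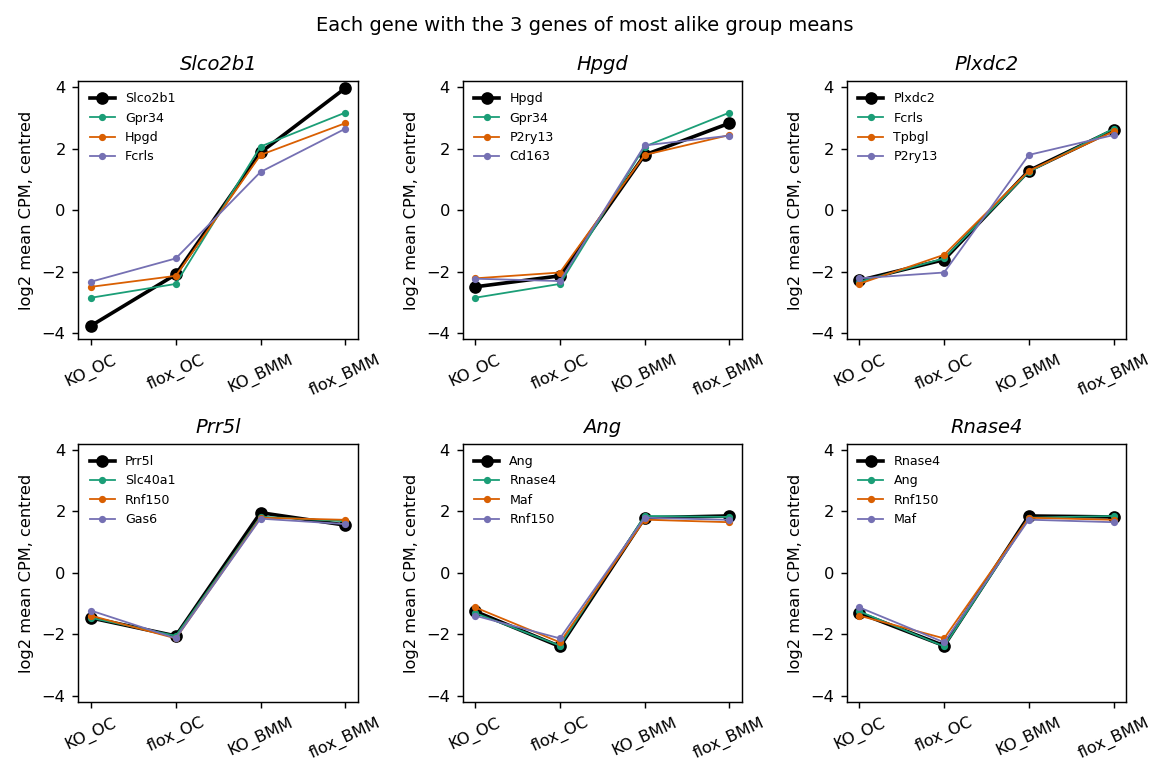
Group means of each of the 6 genes (black) and of its 3 nearest genes (coloured) as log2 mean CPM (no prior count) centred on the mean of the 4 groups. Ang, Rnase4 and Maf run together, with KO_OC above flox_OC and like levels in the BMM groups, while Plxdc2 and Fcrls share an order of KO_OC lowest, then flox_OC, KO_BMM and flox_BMM.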

How the data were processed

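The deposited files hold raw read counts by gene for 12 libraries. Alignment used STAR 2.0.4b and build GRCm38, per the submitters' processing notes. Per the file headers, featureCounts 1.4.5-p1 counted them over exons by gene with Ensembl release 76 and strand setting 0, which ignores strand. The aligner's settings are not stated in the labels. Symbols from GENCODE M21 matched 40254 of 41388 identifiers.

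Counts were fitted with edgeR 4.0.16 (R 4.3.3): TMM factors, the default low-count filter, robust quasi-likelihood F tests on 4 group means and Benjamini-Hochberg adjustment over 13030 genes, called at 0.05. The pipeline was tested on simulated data. SE was computed as log2 fold change (its size) divided by the root of F. Group values are mean ± SD of CPM, and ratios of summed counts have 95% exact intervals, which like the floor of 3 counts cover only counting error, as duplicates from PCR are not independent molecules. Chi-square per degree of freedom between libraries of a group was 1.23 to 5.05, so the counts of no library were a copy of another's. Whether libraries of a group came from the same RNA or the same pool of cells was not tested. Spread between libraries beyond counting error was small, with a coefficient of variation of 2.54% in the edgeR fit, and the p-values rest on it.

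Members and lists were chosen with earlier results of these data known. Named list genes are called genes with at least 5 CPM in the higher group: up to 4 with the largest RANKL change in flox cells and up to 2 by genotype. Per member, the 3 genes of nearest group means are named. Some genes that this rule names are not reported here, but they count in the totals of their lists. Of the listed symbols, Prxl2b and Ang3 were not matched. DESeq2 1.42.0, other scalings, no filter, fits of 2 groups, left-out libraries and a replicate block were tried as alternatives.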

Additional observations from a re-analysis of the deposited data

Results flagged for a closer look

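For none of the 6 genes did all KO libraries lie above flox in one culture condition and below it in the other. Among the other genes that the naming rule gives, 7 reported here did so, with all 3 KO_OC libraries above flox_OC and all 3 KO_BMM libraries below flox_BMM. The log2 fold change of KO over flox was 1.13 in OC and -0.24 in BMM for Cx3cr1, the fractalkine receptor gene (edgeR adjusted p of the difference 1.34e-05). It was 0.29 in OC and -0.19 in BMM for Hpgds (1.02e-09) and 0.26 and -0.71 for the prostaglandin receptor gene Ptger4 (1.24e-11), with the edgeR adjusted p of the difference in brackets. The same values were 0.15 and -0.47 for Fcgr1 (8.3e-10), 0.10 and -0.37 for C1qa (5.28e-14), 0.10 and -0.28 for Abcc3 (8.48e-08) and 0.0871 and -0.20 for Plxdc1 (0.00136). The 7 are no tally over the lists, whose other genes were not searched for this pattern. They were picked for this separation, so the adjusted p of the difference is no independent support. Over all tested genes, libraries did not overlap by genotype for 51.3% in OC and 46.6% in BMM. The OC change of Plxdc1 did not pass.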

How the results depend on the processing

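The calls by genotype of Slco2b1, Hpgd, Ang and Rnase4 in BMM and in OC, and those of Plxdc2 and Prr5l in BMM, were on the same side of the threshold in all 18 alternatives. The call of Plxdc2 in OC was lost in 2 settings, each without 1 library (log2 fold change -0.79 to -0.51 without 1 library), which left 1 of the 6 genes lower in OC. That of Prr5l in OC was lost with no filter on low counts (0.59, edgeR adjusted p = 0.0556), with DESeq2 (0.58, DESeq2 adjusted p = 0.0571) and in 5 settings without 1 library (0.55 to 0.60), and kept without KO_OC library 3 (0.64). The cause was not tested. With library size alone, the fall with RANKL in flox cells was -5.88 for Slco2b1, -3.43 for Prr5l and -4.02 for Rnase4, and in KO cells -3.29 for Prr5l and -3.02 for Rnase4, all smaller falls, as the median of all genes moved up. The difference of RANKL effects of Slco2b1 was -0.0385 to 0.81 without 1 library, and -0.0385 without KO_OC library 3. Same-numbered libraries did not deviate together (correlations -0.0343 to 0.032). With so little spread among libraries, this cannot exclude that same-numbered libraries shared a mouse or a preparation. With the replicate number as a block, 2486 genes were higher and 2664 lower in KO_BMM and 2766 higher and 2566 lower in KO_OC, against 2513, 2690, 2787 and 2595 without it, and no call of the 6 genes changed. Of 2141 values of other named genes under an alternative, 2120 stayed on their side of the threshold in the same direction, 12 lost their call, 9 gained one and 0 turned round. Depth limits the OC values of Slco2b1 (15 counts over KO_OC) and Ang (57 over flox_OC) most.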
